A study of Mus musculus with 2 samples.

Results

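The miR-34 and miR-449 family was followed at its 6 annotated mouse loci, Mir34a, Mir34b, Mir34c, Mir449a, Mir449b and Mir449c. The members were chosen by name, as the rows whose identifier belongs to 1 of these 6 genes in the GENCODE M21 annotation, out of 2202 microRNA loci in the count files. The rule names genes and uses no count. The libraries hold RNA shorter than 30 nt from left cerebral cortex, taken at 14 days of age from females of B6CASTF1/J, an F1 hybrid strain, with no treatment or mutation named in the labels. The labels give a single group with 2 biological replicates, and every comparison is therefore between these 2 libraries or among loci within them. The 2 biosamples carry 1 donor record, the first is labelled as coming from several females and the second from a single one, and separate animals are not stated. P-values and spreads thus describe these libraries and may be technical in part.

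Members of this family are small regulatory RNAs that pair with target transcripts mainly through the seed, bases 2 to 8 of the mature strand, so that microRNAs with a common seed have largely overlapping predicted targets. Mir34a is known as a direct target of the tumour suppressor p53 and as a brake on the cell cycle. Mir34b with Mir34c, and the 3 Mir449 loci, are known from multiciliated cells, where they act redundantly in the formation of motile cilia. In the brain such cells line the ventricles as ependyma and form the choroid plexus, both next to but outside the cortical grey matter.

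The mature 5′ strands are shown because the seed defines the family, with bases 2 to 8 in capitals (RefSeq, GRCm38.p6). RefSeq's table held mature entries for 5 of the 6 loci, without Mir449b, and miR-34c-5p is named only.
miR-34a-5p: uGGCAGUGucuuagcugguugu
miR-449a-5p: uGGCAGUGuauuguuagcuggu
miR-34b-5p: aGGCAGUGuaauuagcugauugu
miR-449c-5p: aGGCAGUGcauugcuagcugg
The 4 sequences had the same seed, and among 1738 mature mouse sequences of the table no other carried it. That table lacks miR-34c-5p and Mir449b, so the search could not cover them. They differed downstream of it. Compared base by base from the 5′ end, miR-449a-5p matched miR-34a-5p at 15 of 22 positions and miR-449c-5p at 18 of 21, whereas miR-34b-5p matched miR-34a-5p at 11 of 22. The longest stretch that any pair of these 4 had in common was 9 bases.

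The 3′ strands of the Mir34b and Mir34c hairpins are shown because these loci are neighbours with very different counts. Capitals again mark bases 2 to 8.
miR-34b-3p: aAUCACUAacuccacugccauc
miR-34c-3p: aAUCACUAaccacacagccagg
They matched at 17 of 22 positions. None of the 6 hairpins held a stretch of 20 nt that was identical in another microRNA locus, which 1084 of the 2202 loci did. The deposited counts are per locus and do not separate the 5′ from the 3′ strand.

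The loci lie at 3 places in the genome (mm10, GENCODE M21). Mir34a (ENSMUSG00000065493.1, chromosome 4, 150068454 to 150068555, plus strand) overlaps an exon of Gm37795, a transcript of unclassified type on the same strand. Mir34c (ENSMUSG00000065587.1, chromosome 9, 51103034 to 51103110) and Mir34b (ENSMUSG00000065492.1, chromosome 9, 51103562 to 51103645) lie on the minus strand with 451 bases between them, inside an intron of Btg4, which is transcribed from the opposite strand. Mir449c (ENSMUSG00000076146.1, chromosome 13, 113035983 to 113036091), Mir449b (ENSMUSG00000078027.1, 113037419 to 113037498) and Mir449a (ENSMUSG00000065575.1, 113037534 to 113037624) lie on the plus strand within an intron of Cdc20b. Only 35 bases separate Mir449b from Mir449a. Upstream of Mir449a, at 37.1 and 46.8 kb, the annotation places Mcidas and Ccno, both known as genes of multiciliated cell formation. Gm10735 and Gpx8, on the minus strand, lie closer to Mir449a, at 1.68 and 5.13 kb.

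Replicate 1 held 2740332 reads assigned to microRNA loci on the RNA strand and replicate 2 held 3207941, of 7745369 and 9627908 reads in all. Reads mapped to several places, 40.6% and 37.9%, enter no locus. Levels are normalised read counts (CPM), the reads of a locus scaled to a library total of 1000000. Of 17 neuron-enriched loci 13 reached 10 reads in both libraries, against 17.7% of all 2202 loci. The p53-responsive list (7 of 9) and the epithelial list (6 of 10) described below also exceeded that share. The count alone therefore does not identify the tissue. The neuron-enriched list summed to 35069 and 45192 CPM and was led by Mir128-1, Mir132 and Mir137. Mir124a-1, Mir124a-2 and Mir124a-3, which share their mature sequence, had at most 12 reads each. A stretch of 20 nt in 14 of these 17 loci, Mir128-1 and Mir138-1 included, is found in another locus, so that multiply mapped reads are missing from their counts.

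Mir34a was the most abundant member. It had 3489 reads in replicate 1 (1273 CPM) and 1487 in replicate 2 (464 CPM), a mean of 868 ± 573 CPM (SD, n = 2). The exact Poisson 95% intervals of the libraries, 1231 to 1316 CPM and 440 to 488 CPM, did not overlap. Among all 2202 loci Mir34a held rank 88 in replicate 1 and rank 144 in replicate 2.

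Mir34c, of the ciliated-cell pair on chromosome 9, had 712 reads (260 CPM) and 284 reads (88.5 CPM), with a mean of 174 ± 121 CPM. Its intervals, 241 to 280 CPM and 78.5 to 99.4 CPM, lay apart as well. Mir34b, its neighbour, had only 15 reads (5.47 CPM) and 25 reads (7.79 CPM), a mean of 6.63 ± 1.64 CPM. Its intervals, 3.06 to 9.03 CPM and 5.04 to 11.5 CPM, overlapped. Within this pair of neighbours Mir34b thus supplied 2.06% of reads in replicate 1 (exact binomial 95% interval 1.16% to 3.38%) and 8.09% in replicate 2 (5.30% to 11.7%). Reads of the pair were almost entirely those of Mir34c in both libraries, 47.5 times as many as of Mir34b in the first and 11.4 times as many in the second.

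Mir449a, the leading locus of the Cdc20b intron, had 698 reads (255 CPM) and 408 reads (127 CPM), a mean of 191 ± 90.2 CPM. Its intervals were 236 to 274 CPM and 115 to 140 CPM. The other loci of that intron were at the limit of detection. Mir449c had 1 read in replicate 1 (0.365 CPM, interval 0.00924 to 2.03) and 3 in replicate 2 (0.935 CPM, interval 0.193 to 2.73). Mir449b had 0 reads in both, for which a one-sided limit of 3 reads corresponds to 1.09 and 0.935 CPM; the two-sided exact Poisson interval used for the other loci ends at 1.35 and 1.15 CPM. Mir449a therefore gave all but 1 of the 699 reads of the intron in replicate 1 and all but 3 of the 411 in replicate 2. These intervals and limits describe the counting error of reads alone. The labels mention no molecular identifiers, so amplified copies could not be told from separate molecules.

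**Figure D1:**
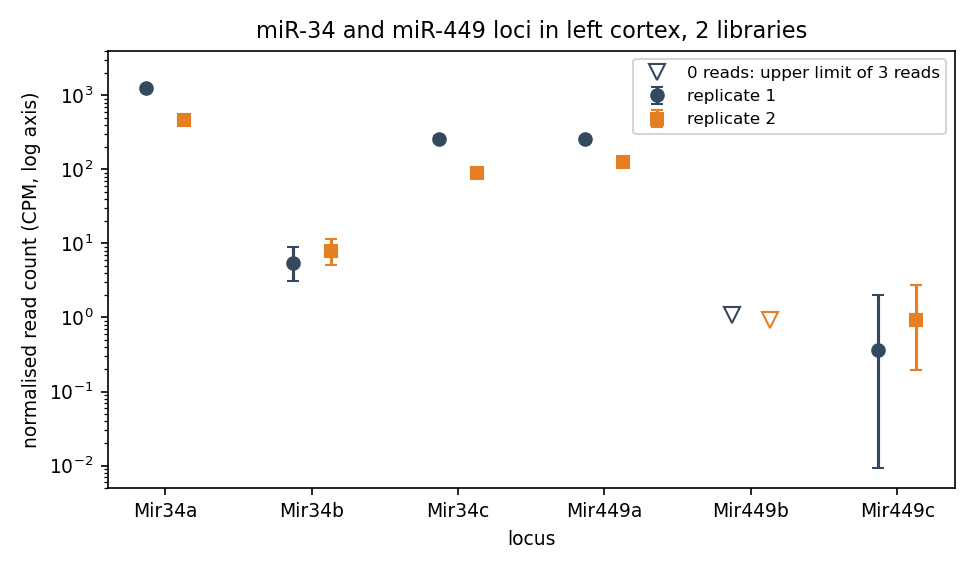
Normalised read count (CPM, log axis) of the 6 loci in replicate 1 (circles) and replicate 2 (squares), with exact Poisson 95% intervals of the counts; open triangles mark the limit of 3 reads for Mir449b, which had 0 reads. Mir34a, Mir34c and Mir449a stand near or above 100 CPM in both libraries and are lower in replicate 2, while Mir34b, Mir449b and Mir449c stay below 10 CPM.

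By mean level the order was Mir34a, Mir449a, Mir34c, Mir34b, Mir449c and Mir449b. The place of Mir34a at the top held in both libraries, and so did the gap between the 3 abundant members and Mir34b. Mir34c and Mir449a could not be ordered. They overlapped in replicate 1 (260 and 255 CPM), whereas Mir449a was above Mir34c in replicate 2 (127 and 88.5 CPM), and their means differed by less than their spread between libraries. Mir449b and Mir449c were both within the limit that 3 reads set. With at least 10 reads in each library as the criterion of detection, 4 of the 6 members were detected, against 17.7% of all loci (389 of 2202).

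The family as a whole held 4915 reads in replicate 1 and 2207 in replicate 2. Its share of locus-assigned reads was 0.179% (exact binomial 95% interval 0.174% to 0.184%) and 0.0688% (0.0660% to 0.0717%), a mean of 0.124 ± 0.0782% (n = 2). The share was 2.61 times as large in the first library. The parts of the 3 abundant members within the family moved less than its total. Mir34a made up 71.0% of family reads in replicate 1 (69.7% to 72.3%) and 67.4% in replicate 2 (65.4% to 69.3%), a smaller part in the second library beyond counting error. Mir34c made up 14.5% (13.5% to 15.5%) and 12.9% (11.5% to 14.3%), with overlapping intervals. Mir449a made up 14.2% (13.2% to 15.2%) and 18.5% (16.9% to 20.2%), so its part was larger there beyond counting error. Mir34b made up 0.305% (0.171% to 0.503%) and 1.13% (0.734% to 1.67%), likewise a larger part in the second library. Without Mir34a, the ciliated-cell loci together held 0.0520% and 0.0224% of locus-assigned reads.

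**Figure D2:**
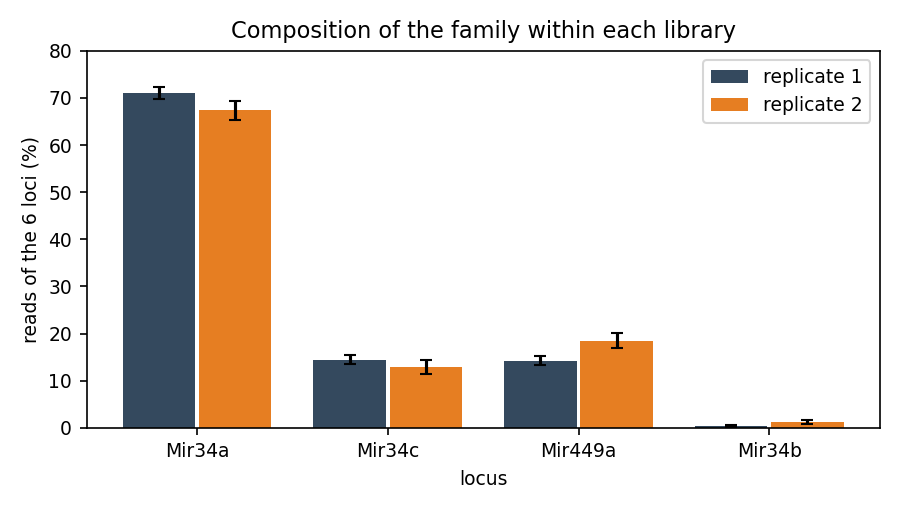
Percent of the reads of the 6 loci that each of the 4 detected members held in replicate 1 (dark bars) and replicate 2 (orange bars), with exact binomial 95% intervals. Mir34a holds the largest part in both libraries (71.0% and 67.4%), and Mir34b holds 0.305% and 1.13%.

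The difference between the libraries was then measured against all detected loci. The 3 abundant members were lower in replicate 2, and the fourth detected member was not. On the log2 scale, with reads scaled by the trimmed mean of M values (TMM), the ratio of replicate 2 to replicate 1 was −1.73 for Mir34c (exact 95% interval −1.93 to −1.53), −1.63 for Mir34a (−1.72 to −1.54) and −1.17 for Mir449a (−1.35 to −0.996). For Mir34b it was 0.34, with a wide interval of −0.64 to 1.37 that spans 0. This interval does not reach the ratio of any of the other 3 members.

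In the exact binomial test (two-sided, p-values adjusted by Benjamini and Hochberg across 389 detected loci), Mir34a, Mir34c (adjusted p = 3.10e-72) and Mir449a (adjusted p = 5.94e-40) passed and Mir34b did not (adjusted p = 0.622). Of the 4 detected members 3 were lower and 0 higher, against 29.6% lower and 28.8% higher among all detected loci. Scaled by library total alone, the same 3 members stayed lower, and the split over all loci was 77 lower and 159 higher. The test covers counting error only, and with so many loci past it a call is not a finding about a locus. The size of the differences sets the members in context. All 3 were at least 2-fold lower, as were 4.88% of detected loci (19 of 389) with an adjusted p under 0.05. Ordered from the lowest ratio, Mir34c was at place 9, Mir34a at place 10 and Mir449a at place 14 of 389. The ratio had a median of −0.0098 and an SD of 0.70 over all detected loci, and a median of −1.40 over the 4 detected members.

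**Figure D3:**
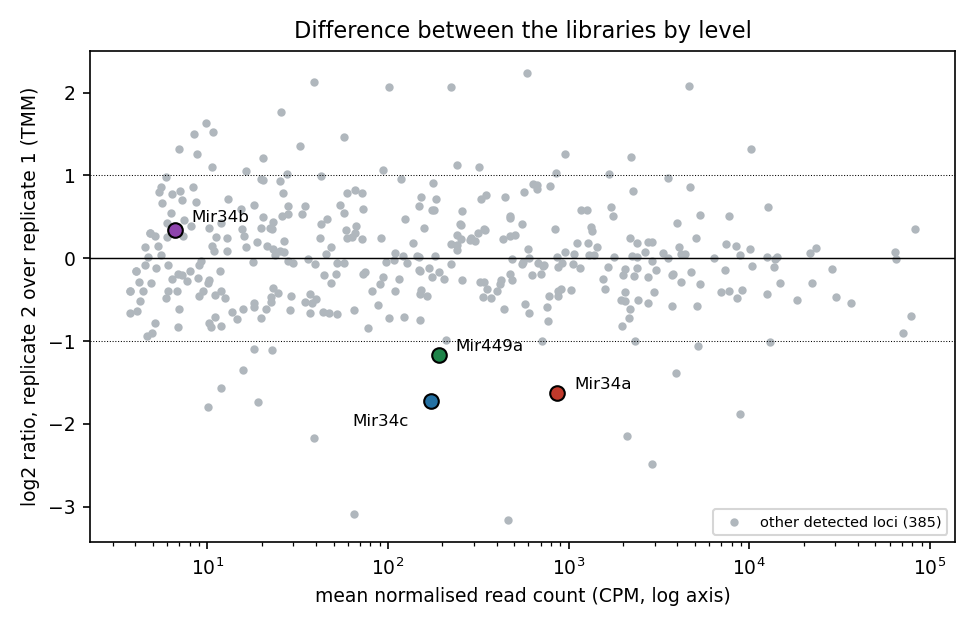
Log2 ratio of replicate 2 over replicate 1 (TMM-scaled) against mean normalised read count (CPM, log axis) for the 389 detected loci, with the 4 detected members in colour and dotted lines at a 2-fold difference. Mir34c (−1.73), Mir34a (−1.63) and Mir449a (−1.17) lie below the lower dotted line, and Mir34b (0.34) lies among the other loci of low level.

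The 3 lower members come from separate chromosomes and have no annotated host transcript in common. The neighbours Mir34b and Mir34c, in contrast, had different ratios, 0.34 and −1.73, although the interval of Mir34b spans 0. At most 25 reads lie behind each value of Mir34b, so its ratio is imprecise.

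The loci outside the family nearest to each detected member were looked up by the distance of log2(CPM + 1) over the 2 libraries. Within the family, Mir34c and Mir449a were 0.52 apart, closer than Mir34c was to any locus outside it. Nearest to Mir34a were the erythroid Mir451a (908 and 510 CPM, distance 0.51) and Mir338, in an intron of the kinase gene Aatk (923 and 613 CPM, distance 0.61). Mir29c (268 and 153 CPM) and Mir375 (180 and 121 CPM), known from endocrine cells, were nearest to Mir449a, at 0.27 and 0.50, and also to Mir34c, at 0.78 and 0.69. Mir29c shares a stretch of 20 nt with another locus, so its count leaves out reads mapped to several places. Nearest to Mir34b were Mir5617, in an intron of the synapsin gene Syn1 (4.74 and 7.79 CPM, distance 0.17), and Mir6958 (5.11 and 6.86 CPM, distance 0.18). Likeness over 2 libraries is a statement about level only.

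Other microRNAs described as p53-responsive were examined beside the members. Of 9 listed loci 7 were detected, of which 5 were lower and 1 higher in replicate 2 past the test, with a median log2 ratio of −0.55 (29.6% lower, 28.8% higher and a median of −0.0098 over all detected loci). Mir107, in a family linked to metabolism, had 13196 and 3122 reads and the lowest ratio of the list (−2.48). Mir194-2 had 60 and 31 reads (−1.35). Both, like Mir16-1 and Mir194-1, share a stretch of 20 nt with another locus, so their counts leave out reads mapped to several places. Mir15a and Mir16-1, neighbours known as regulators of the cell cycle, had ratios of −0.62 and −0.55. Mir143 (−0.28) was lower and Mir145a (0.36) higher, although both are known from the same transcript of smooth muscle. Mir192 had 27 and 26 reads (−0.45) and did not pass. Mir215, with 3 and 2 reads, and Mir194-1, with 0 in both, were not detected. Scaling by library total gave the same split, 5 lower and 1 higher. Several of these microRNAs are under other controls as well, and p53 activity was not measured.

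The loci of chromosomes 9 and 13 are known to be high in ciliated epithelia, and the values of choroid plexus and epithelial markers are therefore given beside them. No list of ciliated-cell or ependymal markers was used, so these values do not measure ciliated cells as such. Mir204, the abundant microRNA of the choroid plexus, had 1219 reads (445 CPM) and 2864 reads (893 CPM), a log2 ratio of 0.83 past the test. Mir211, the other choroid plexus locus of the list, had 6 and 19 reads. Their sum was 447 CPM in replicate 1 and 899 CPM in replicate 2. Among 10 epithelial loci 6 were detected, 2 of them higher past the test and 4 not past it, with a median of 0.33. A share of 2 in 6 is close to the 28.8% of all detected loci that were higher. Mir200b had 36 and 207 reads (ratio 2.12), Mir203 had 110 and 251 reads (0.79), and Mir429 had 150 and 244 reads (0.30, not past the test, but 0.47 and past it with adjusted p = 0.00281 in the exact test when scaled by library total). The epithelial list summed to 153 and 285 CPM, with Mir96 at 0 in both libraries and Mir141 at 0 and 3 reads. Mir34c plus Mir34b summed to 265 and 96.3 CPM, and Mir449a with Mir449b and Mir449c to 255 and 128 CPM. In tissue as a whole, fewer cells of a type and less RNA per cell cannot be told apart, and the part of cell composition in these differences was not tested.

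Germ cells are another known site of high levels of Mir34b, Mir34c and Mir449a. Of 14 X-linked loci known from the testis none was detected, 11 had 0 reads in both libraries, and the list summed to 10 reads in each. Over all 2202 loci 17.7% were detected and 1450 had 0 reads in both libraries. The tissue was cortex of females, so low counts at testis loci were given by the design. The source of the member reads was not tested. The neuron-enriched list had a median ratio of 0.37, with 8 of 13 detected loci higher and 3 lower past the test, Mir128-1 (1.32) and Mir138-1 (−1.07) among them, against 28.8% higher, 29.6% lower and a median of −0.0098 over all detected loci.

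**Figure D4:**
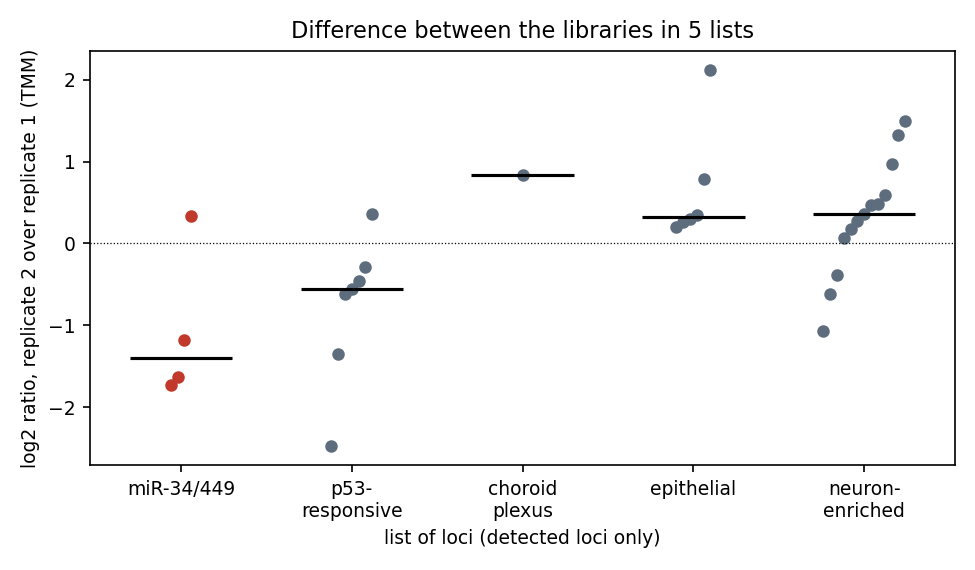
Log2 ratio of replicate 2 over replicate 1 (TMM-scaled) for the detected loci of 5 lists, 1 point per locus, with the median of each list as a line. The list at the left, the members, has the lowest median (−1.40, 4 loci), the p53-responsive list lies at −0.55 (7 loci), and the choroid plexus (1 locus), epithelial (6) and neuron-enriched (13) lists have medians above 0.

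Reads on the opposite strand were seen at Mir34b but not at the 3 abundant members. On the strand opposite to the RNA, from which Btg4 is transcribed, Mir34b had 4 reads in each library beside 15 and 25 on its own strand. These were 21.1% (exact binomial 95% interval 6.05% to 45.6%) and 13.8% (3.89% to 31.7%) of reads at the locus. Mir34c, in the same intron of Btg4, had 0 opposite-strand reads beside 712 and 284, which allows up to 0.517% and 1.29% by the same interval. Mir34a and Mir449a also had 0. Mir449b and Mir449c had too few reads on either strand for a comparison.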

How the data were processed

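The authors deposited whole read counts per microRNA locus for 2 libraries, made on mm10 with GENCODE M21 per the list of files deposited beside them. The sources used here do not name the aligner, counter or trimming. The 3 columns of counts have no header, their meaning was taken from the values, and the RNA-strand column was used. The 4 rows that name no gene held 64.6% and 66.7% of reads and were left out of totals. Symbols, positions and hosts came from GENCODE M21, in which all 2202 identifiers matched, and sequences from RefSeq (GRCm38.p6).

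CPM used locus-assigned totals. Detection needed 10 reads in each library. Ratios used edgeR 4.0.16 TMM factors over the 389 detected loci, with a two-sided exact binomial test (scipy 1.17.1), Benjamini-Hochberg adjustment over these loci and a threshold of 0.05. The procedure was tested on simulated data. These were drawn with counting (Poisson) error only, so they do not cover further variation between the real libraries. With 1 group no test between groups could be fitted. edgeR's common dispersion corresponded to a biological coefficient of variation of 0.317. Nearest loci were taken by Euclidean distance of log2(CPM + 1).

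Members and lists were chosen with earlier results of these data known. Named loci were the members, the p53-responsive list, other loci with the seed, the 2 nearest loci of each detected member and up to 3 leading loci per marker list. Other loci of the marker lists (Mir124a-1, Mir124a-2, Mir124a-3, Mir138-1, Mir96 and Mir141) and the neighbouring pair in the closing section were named after their values were seen. Alternatives were the column without strand, all reads as the denominator, DESeq2 1.42.0 size factors, library totals, minimums of 5 or 50 reads or none, and each replicate left out.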

Additional observations from a re-analysis of the deposited data

Results flagged for a closer look

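Reads on the strand opposite to the RNA lie outside the main measurement. Mir34b had 4 of them in replicate 1 and 4 in replicate 2. They were flagged by a cutoff of more than 3 reads, which is not a measured background of opposite-strand reads. Over all 2202 loci 32 exceeded this cutoff in both libraries. At 27 of them another microRNA is annotated on the opposite strand, and Mir34b is among the remaining 5.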

How the results depend on the processing

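The 3 lower members, Mir34a, Mir34c and Mir449a, were lower past the test and at least 2-fold lower under each of the 6 alternatives of the ratio (column without strand, DESeq2 size factors, library totals, at least 5 or 50 reads, no minimum). Their log2 ratios ranged from −1.64 to −1.46 for Mir34a, from −1.73 to −1.55 for Mir34c and from −1.18 to −1.002 for Mir449a. Mir34b was above 0 in each setting that tested it, from 0.21 to 0.51, and never past the test (adjusted p 0.419 to 0.763). It was not tested with at least 50 reads. Library totals moved the median log2 ratio of all loci to 0.16. The family's mean share of 0.124% became 0.0432% with all reads as the denominator, which counts unmapped and multiply mapped reads, and it was 0.0688% without replicate 1 and 0.179% without replicate 2. The level of Mir34b was 8.57 CPM in the column without strand. A ratio between libraries has no value with a library left out. No paired analysis was possible because there is 1 group. Depth limits Mir34b, Mir449b and Mir449c, at 25 reads or fewer in each library.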

Other observations

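The unequal behaviour of Mir34b and Mir34c was set beside other neighbouring loci, a comparison added after the values were seen. Among 104 pairs of adjacent detected loci on the same strand with at most 10 kb between them, the log2 ratios of replicate 2 to replicate 1 differed by a median of 0.32. They differed by 2.06 for Mir34b and Mir34c, the second largest difference after that of Mir544 and Mir382 in the Dlk1-Dio3 region (2.13). Each of these pairs holds a locus of few reads, Mir34b with 15 and 25 and Mir544 with 12 and 49. Their places in this order are therefore imprecise. In level, Mir34b and Mir34c differed by 4.71 on the log2 scale of mean CPM, against a median of 2.63 over the 104 pairs, and 22 other pairs differed by more.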
